A study of Mus musculus with 10 samples.

Results

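The 42 immediate early and stress response genes examined here were picked by symbol from the 26146 genes counted in hematopoietic stem cells (HSCs), as a list of symbols drawn up with earlier results of these data known. They comprise the AP-1 family (*Fos*, *Fosb*, *Fosl1*, *Fosl2*, *Jun*, *Junb*, *Jund*, *Atf3*, *Maff*, *Mafk*). Next are serum response factor and the EGR factors (*Srf*, *Egr1*, *Egr2*, *Egr3*). Then come 4 KLF factors (*Klf2*, *Klf4*, *Klf6*, *Klf10*), 3 IER genes (*Ier2*, *Ier3*, *Ier5*) and 5 dual specificity phosphatases (*Dusp1*, *Dusp2*, *Dusp4*, *Dusp5*, *Dusp6*). A further 3 genes are grouped as NF-kB feedback inhibitors (*Nfkbia*, *Nfkbiz*, *Tnfaip3*), of which *Nfkbiz* encodes a nuclear cofactor of NF-kB. The rest are 3 mRNA decay proteins (*Zfp36*, *Zfp36l1*, *Zfp36l2*) and 5 growth arrest genes (*Btg1*, *Btg2*, *Gadd45a*, *Gadd45b*, *Gadd45g*). Another 5 early genes (*Gem*, *Csrnp1*, *Per1*, *Sik1*, *Hes1*) complete the list. All 42 were present in the count table, and 40 passed edgeR's filter on low counts (filterByExpr) and were tested. The exceptions were *Egr2* and *Egr3*.

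HSCs were sorted from C57BL/6J mice aged 8 to 12 weeks, and RNA was sequenced in 1 library per mouse. The study does not state the gate for these libraries. Elsewhere it defines HSCs as LSK CD48-CD150+ cells, in some experiments also Flt3-CD34-. The 5 *Cited2* CTL mice, labelled wildtype, carried floxed *Cited2* alleles and no Cre. The 5 *Cited2* CKO mice carried the same floxed alleles together with Vav-iCre, a transgene that drives Cre throughout the hematopoietic system, so that deletion was not limited to HSCs. CITED2 is a transcriptional coregulator that binds CBP and p300. The libraries are written CTL 1 to CTL 5 and CKO 1 to CKO 5 after the numbers in their labels, and the labels name no treatment.

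Immediate early genes are transcribed within minutes of a growth factor, cytokine or stress signal, from factors such as SRF, CREB and NF-kB that are already present in the cell. Their first products are transcription factors of the AP-1, EGR and KLF families, and the next are inhibitors that end the response: DUSP phosphatases inactivate MAP kinases, ZFP36 proteins speed the decay of short-lived mRNAs, and NFKBIA and TNFAIP3 restrain NF-kB. In HSCs, AP-1 subunits, EGR1 and the KLF factors are known for their links to quiescence and activation, and as a class early mRNAs are also known to accumulate while a tissue is dissociated and sorted.

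RefSeq (GRCm38.p6) gave a promoter for 31 of the 42 genes, all except *Fosl1*, *Egr1*, *Egr3*, *Klf10*, *Ier2*, *Dusp4*, *Nfkbiz*, *Zfp36l2*, *Gem*, *Sik1* and *Hes1*, and the 250 bases upstream of the transcription start were searched on both strands for 7 motifs. The core of the cAMP response element, TGACG, was present in 17 of the 31 promoters (54.8%), against 19.8% of the promoters of all 27025 genes searched, and the full palindrome TGACGTCA, which contains that core, in 3 (9.68% against 1.77%), those of *Maff*, *Dusp1* and *Btg2*. The EGR site GCGNGGGCG was present in 11 (35.5% against 5.33%), the CArG box bound by serum response factor in 4 (12.9% against 1.62%), those of *Srf*, *Egr2*, *Dusp5* and *Zfp36*, and a kappaB site in 8 (25.8% against 8.23%). The AP-1 site TGANTCA was present in 3 (9.68% against 7.82%) and the TATA box TATAAA in 7 (22.6% against 14.3%). A gene counted where any of its listed starts held the motif, and the genes searched were not matched for GC content. These shares describe letters in a window and were not tested. The 5 promoters printed here carry examples of these motifs in genes that the results turn on: the gene with the highest level per length (*Fos*), the gene with the widest spread between control mice (*Fosb*), the abundant carriers of the full palindrome (*Dusp1* and *Btg2*), and the NF-kB inhibitor with a kappaB site next to its start (*Nfkbia*). Each is written 5′ to 3′ on the strand of its gene and ends at the base before the start, and capitals mark matches to the motifs. They lie at chr12:85473640-85473889 (plus strand), chr7:19310046-19310295 (minus), chr17:26508473-26508722 (minus), chr1:134079156-134079405 (minus) and chr12:55492648-55492897 (minus).
Fos: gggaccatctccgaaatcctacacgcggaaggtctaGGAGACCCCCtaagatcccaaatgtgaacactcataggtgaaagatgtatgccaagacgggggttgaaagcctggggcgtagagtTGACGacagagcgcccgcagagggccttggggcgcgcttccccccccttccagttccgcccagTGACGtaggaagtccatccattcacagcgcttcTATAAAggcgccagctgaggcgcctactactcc
Fosb: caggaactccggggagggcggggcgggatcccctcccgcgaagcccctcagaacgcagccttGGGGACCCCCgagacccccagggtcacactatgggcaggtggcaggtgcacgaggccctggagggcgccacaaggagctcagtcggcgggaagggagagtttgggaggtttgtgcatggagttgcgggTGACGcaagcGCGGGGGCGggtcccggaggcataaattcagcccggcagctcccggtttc
Dusp1: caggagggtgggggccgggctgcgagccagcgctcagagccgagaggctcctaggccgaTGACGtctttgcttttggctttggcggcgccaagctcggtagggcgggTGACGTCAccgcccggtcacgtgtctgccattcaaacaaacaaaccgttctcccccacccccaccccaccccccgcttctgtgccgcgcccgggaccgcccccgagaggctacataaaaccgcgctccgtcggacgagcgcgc
Btg2: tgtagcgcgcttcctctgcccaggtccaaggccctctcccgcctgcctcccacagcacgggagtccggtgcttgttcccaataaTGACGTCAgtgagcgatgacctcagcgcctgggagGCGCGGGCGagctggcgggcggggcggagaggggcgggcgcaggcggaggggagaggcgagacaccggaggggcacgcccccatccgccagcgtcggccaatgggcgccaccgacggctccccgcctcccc
Nfkbia: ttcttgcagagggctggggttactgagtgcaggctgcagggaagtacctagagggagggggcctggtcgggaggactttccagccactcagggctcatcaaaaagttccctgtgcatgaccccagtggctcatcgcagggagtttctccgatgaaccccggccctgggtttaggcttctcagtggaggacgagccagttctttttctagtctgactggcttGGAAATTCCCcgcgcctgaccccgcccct
In the *Fos* promoter the capitals show, in order, a kappaB site, a pair of TGACG cores and the TATA box. The *Fosb* promoter holds a kappaB site, a TGACG core and an EGR site. *Dusp1* and *Btg2* hold TGACGTCA, preceded in *Dusp1* by a further TGACG core and followed in *Btg2* by an EGR site, and *Nfkbia* holds a kappaB site.

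The deposited counts summed to 3058690 to 4548795 per library, and all 10 HSC and LSK markers examined (among them *Kit*, *Slamf1*, *Procr*, *Hlf* and *Mecom*) were above 5 CPM in the mean of the libraries, CPM being counts scaled to a common library total after TMM normalization. *Cited2* itself stood at 101, 171, 162, 222 and 160.2 CPM in CTL 1 to CTL 5 and 3.80, 4.21, 120.1, 5.00 and 8.30 CPM in CKO 1 to CKO 5. The library labelled CKO 3, with 508 *Cited2* counts and 73.6% of the control mean, goes against its label, and every difference between the genotypes given here includes it unless stated. In edgeR's quasi-likelihood test, with p adjusted by Benjamini-Hochberg over all tested genes, *Cited2* differed by -2.51 on the log2 scale (standard error 0.94, edgeR adjusted p = 0.328) with that library and by -4.92 without it. Among markers of other cells, the summed level of 8 granulocyte and monocyte genes was 399 to 854 CPM in the control and 378 to 645 CPM in the *Cited2* CKO libraries, and none of the 8 had a mean under 1 CPM. CTL 5 and CKO 5 stood apart for part of that list, with *Mpo* at 190 and 108 CPM against 6.19 to 19.99 CPM in the other 8 libraries. *Elane*, *Ctsg* and *S100a9* were also highest in CTL 5 and CKO 5, and *S100a8* and *Ngp* in CTL 5 alone. *Lyz2* (209 and 228 CPM in CTL 5 and CKO 5, 197 to 263 CPM in the others) and *Prtn3* (129 and 120 CPM, 89.8 to 139 CPM in the others) did not set them apart. T cell markers summed to 3.23 to 12.3 CPM over all libraries, with 4 of 6 under 1 CPM, erythroid markers to 38.6 to 67.4 CPM, with 2 of 7 under 1 CPM, and B cell markers to 51.4 to 90.8 CPM, with 2 of 6 under 1 CPM.

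Early response genes were among the abundant transcripts of these HSCs, with a median of 0.125 counts per base of gene for the 40 tested genes against 0.0613 for all tested genes. Per length (CPM divided by the deposited gene length in kb, mean of 10 libraries), *Fos* was highest at 265, followed by *Ier2* (193), *Jun* (192), *Zfp36* (189.6), *Dusp1* (181), *Egr1* (176), *Dusp2* (146), *Junb* (133), *Ier3* (122) and *Klf6* (101). The ranges of *Ier2*, *Jun*, *Zfp36*, *Dusp1* and *Egr1* over the 10 libraries overlapped, so that their order is not settled by these data. No gene of at least 200 bases exceeded 2 counts per base, the totals are below the number of reads that were sequenced, and whether the levels and ranks of the most abundant genes, such as *Fos*, *Ier2* and *Jun*, were capped was not tested. A middle group from *Dusp6* (76.5), *Klf10* (73.8) and *Nfkbia* (72.96) down to *Gadd45b* (11.6) held most of the other genes. The bottom of the order was formed by *Per1* (8.19), *Atf3* (6.53), *Klf4* (5.25), *Fosl2* (3.28), *Maff* (2.71), *Fosl1* (2.16), *Srf* (2.15), *Egr2* (0.926) and *Egr3* (0.151). Within families the ranges over the libraries did not overlap between *Fos* and *Fosb*, *Fosl1* or *Fosl2*, between *Jun* or *Junb* and *Jund*, or between *Egr1* and *Egr2* or *Egr3*.

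**Figure D1:**
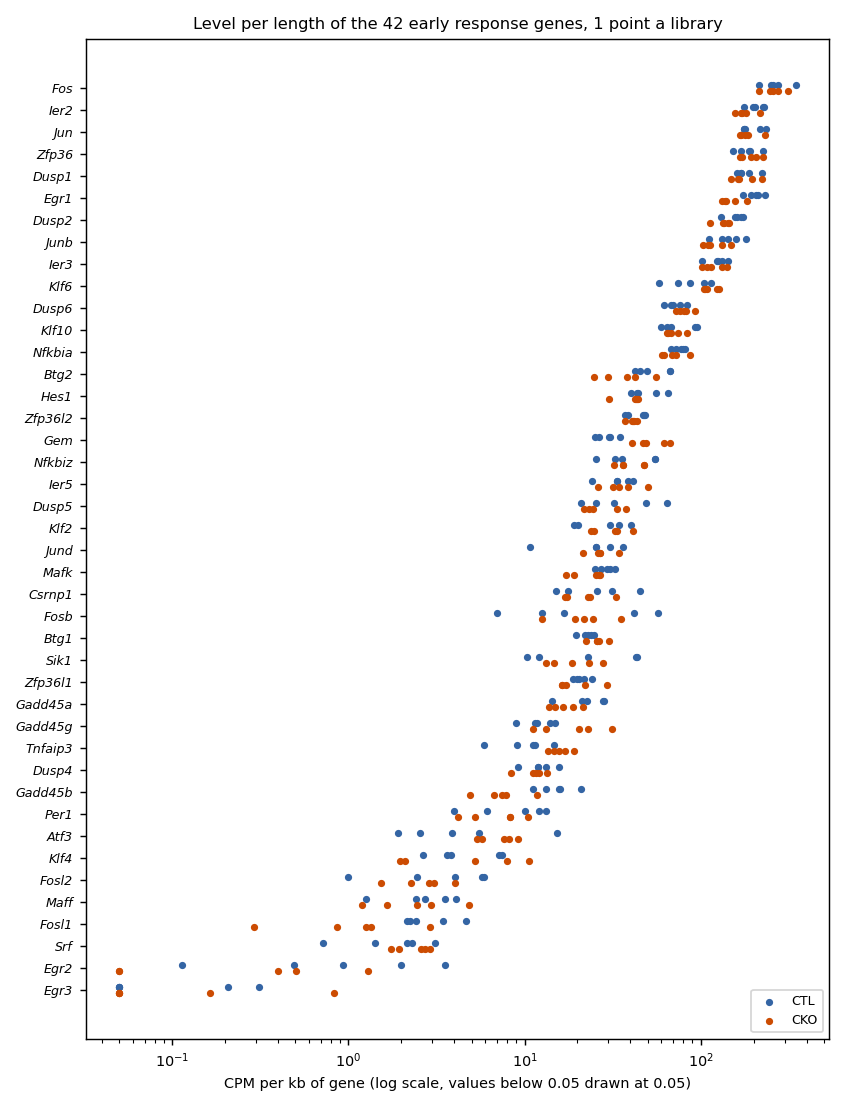
CPM per kb of gene (x axis, log scale) of the 42 early response genes (y axis, ordered by mean), 1 point per library, blue for Cited2 CTL and orange for Cited2 CKO; values below 0.05 are drawn at 0.05. The order runs from Fos, with a mean of 265, to Egr3, with a mean of 0.151, and the points of a gene spread more widely towards the bottom.

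Before the genotypes are compared, the libraries themselves differed in early response genes. Each gene's log2 CPM was set against its own mean over the 10 libraries. The median deviation of the 40 tested genes was highest in CTL 3 (0.32), CKO 4 (0.19), CTL 5 (0.18) and CKO 5 (0.12), and lowest in CTL 4 (-0.21), CKO 1 (-0.18), CKO 2 (-0.14) and the library labelled CKO 3 (-0.13). CTL 2 (0.02) and CTL 1 (-0.03) lay between, and the median deviation of all 14165 tested genes was close to 0 in each library, from -0.0034 to 0.04. CTL 3 was the highest of the 10 libraries for 19 of the 40 genes, and CTL 4 was the lowest for 13. Among the 5 control libraries alone, CTL 3 was highest for 23 of 40 genes (57.5%, against 19.3% of all tested genes), and CTL 4 was lowest for 24 (60%, against 19%).

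The genes that spread most between control mice were *Fosb*, *Atf3*, *Fosl2* and *Sik1*. *Fosb*, an AP-1 subunit, stood at 26.4, 63.4, 216, 47.3 and 158 CPM in CTL 1 to CTL 5 and 47.5, 72.7, 92.9, 82.6 and 134 CPM in CKO 1 to CKO 5, an 8.16-fold span between the control mice and a 2.81-fold span between the *Cited2* CKO mice. *Sik1*, a kinase that restrains CREB coactivators, stood at 54.2, 103, 195, 46.3 and 193 CPM in CTL 1 to CTL 5 and 66.3, 59.4, 83.9, 106 and 126 CPM in CKO 1 to CKO 5. *Atf3*, a stress-induced factor of the ATF family, stood at 5.02, 3.79, 30.3, 10.97 and 7.66 CPM in CTL 1 to CTL 5 and 16.2, 10.6, 15.1, 18.2 and 11.3 CPM in CKO 1 to CKO 5. CTL 3 was highest of the controls for all 3 of these genes, and CTL 5 came next for *Fosb* and *Sik1* but not for *Atf3*. The SD of log2 CPM over the 5 control libraries was 1.24 for *Fosb*, 1.11 for *Atf3*, 1.03 for *Fosl2*, 0.98 for *Sik1*, 0.75 for *Srf* and 0.72 for *Per1*, and 26 of the 40 genes were above the median of all genes (0.24). At the other end were *Nfkbia* (0.10), *Btg1* (0.13), *Zfp36l1* (0.13), *Mafk* (0.15) and *Egr1* (0.15). The median SD of the 40 genes was 0.31 in the control and 0.25 in the *Cited2* CKO libraries, against 0.24 and 0.28 for all tested genes. CTL 5 and CKO 5 were also the libraries with high *Mpo*. CTL 3 had *Mpo* at 9.11 CPM but the neutrophil genes *S100a8* and *Ngp* at 49.4 and 45.9 CPM, inside the ranges of 13.7 to 69.6 CPM and 5.30 to 92.1 CPM over all libraries, and the part of other cells in the early response genes was not tested.

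**Figure D2:**
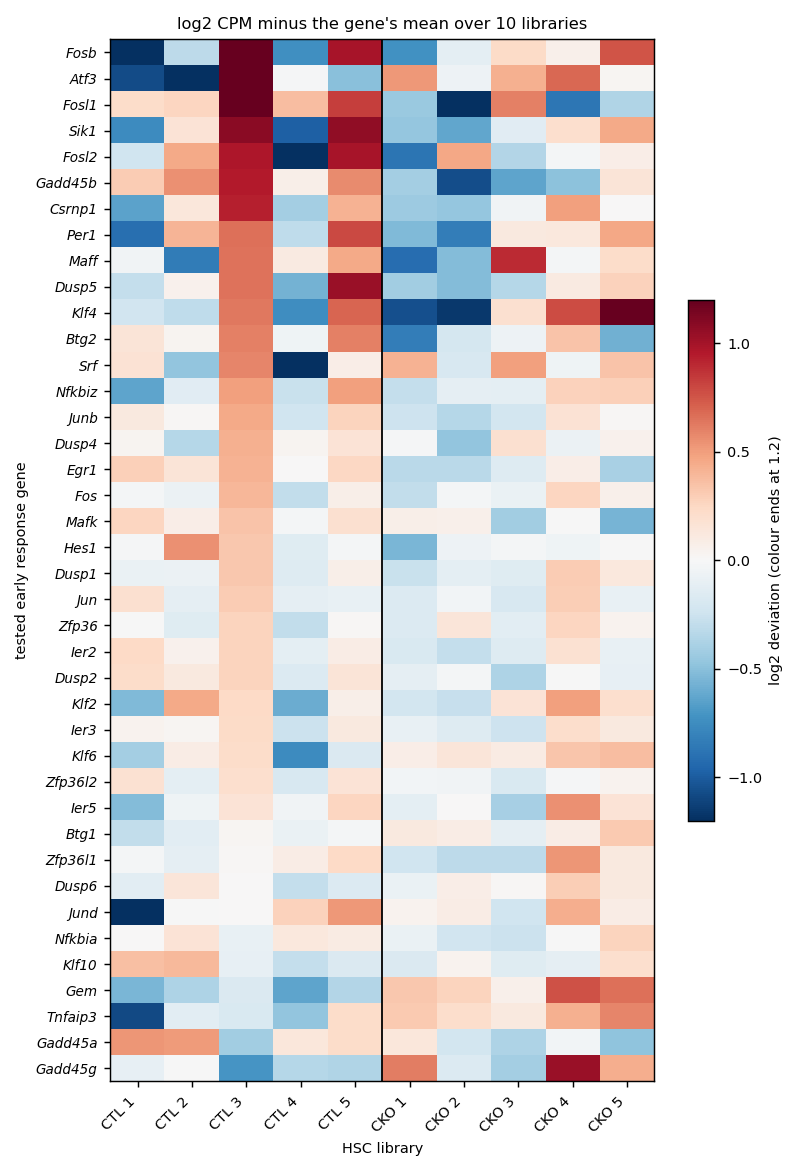
Deviation of log2 CPM from the gene's mean over 10 libraries (colour, blue below and red above, ending at 1.2) for the 40 tested early response genes (rows, ordered by CTL 3) in each library (columns, genotypes parted by the vertical line). The CTL 3 column is red for 34 of 40 genes and the CTL 4 column is blue for 31.

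To ask whether loss of *Cited2* alters the early response program, the genotypes were compared over all 14165 tested genes with the same edgeR test, the source of every edgeR adjusted p given here, and a gene was called at an adjusted p under 0.05 and a fold change above 20%. Of the 40 tested early response genes, 1 was called higher (*Gem*) and 0 were called lower, where 0.12% of all tested genes were called higher and 0.106% lower. At an unadjusted p under 0.05, 5 of the 40 genes were higher in *Cited2* CKO HSCs (12.5%; 5.8% of all tested genes) and 6 were lower (15%; 7.08% of all). DESeq2 with the Wald test also called *Gem* higher (1.1% of 13399 genes with an adjusted p) and called *Egr1* and *Gadd45b* lower (1.44%). The CPM of the genotypes did not overlap for 1 early response gene, again *Gem* (2.5%; 3.33% of all tested genes). In fold change, 13 of the 40 genes were higher and 27 lower (67.5% lower, against 49% of all), with a median log2 fold change of -0.09 against 0.01 for all genes. In such bulk libraries, fewer cells with a transcript and less of it per cell cannot be told apart. Without CTL 3, the library that stood apart for these genes, 19 were higher and 21 lower and the median was -0.01. That library was picked for being high in these same genes, so this shift followed from the choice. In each other fit with 1 library left out, more genes were lower than higher. They ran from 9 higher and 31 lower without CKO 4 to 17 higher and 24 lower without CKO 1. Without the library labelled CKO 3, 41 of the 42 genes could be tested, 16 were higher and 25 lower with a median of -0.07, and *Gem* was the only one called, where 0.292% of the 14372 genes tested in that fit were called.

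Early response genes had a higher GC content than other tested genes (median 54.7% against 48.8%). With an offset fitted to GC content and length, 21 of the 40 genes were higher and 19 lower in *Cited2* CKO HSCs, with a median log2 fold change of 0.02 against -0.01 over the 13895 genes with a GC value. Which way the set as a whole leaned therefore changed with this setting, and none of the 40 genes was called with it, *Gem* included (log2 fold change 0.79, edgeR adjusted p = 0.200). With the offset, 5 genes were called higher and 3 lower of the 13895. The offset can also remove a difference of genotype that follows GC content or length.

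**Figure D3:**
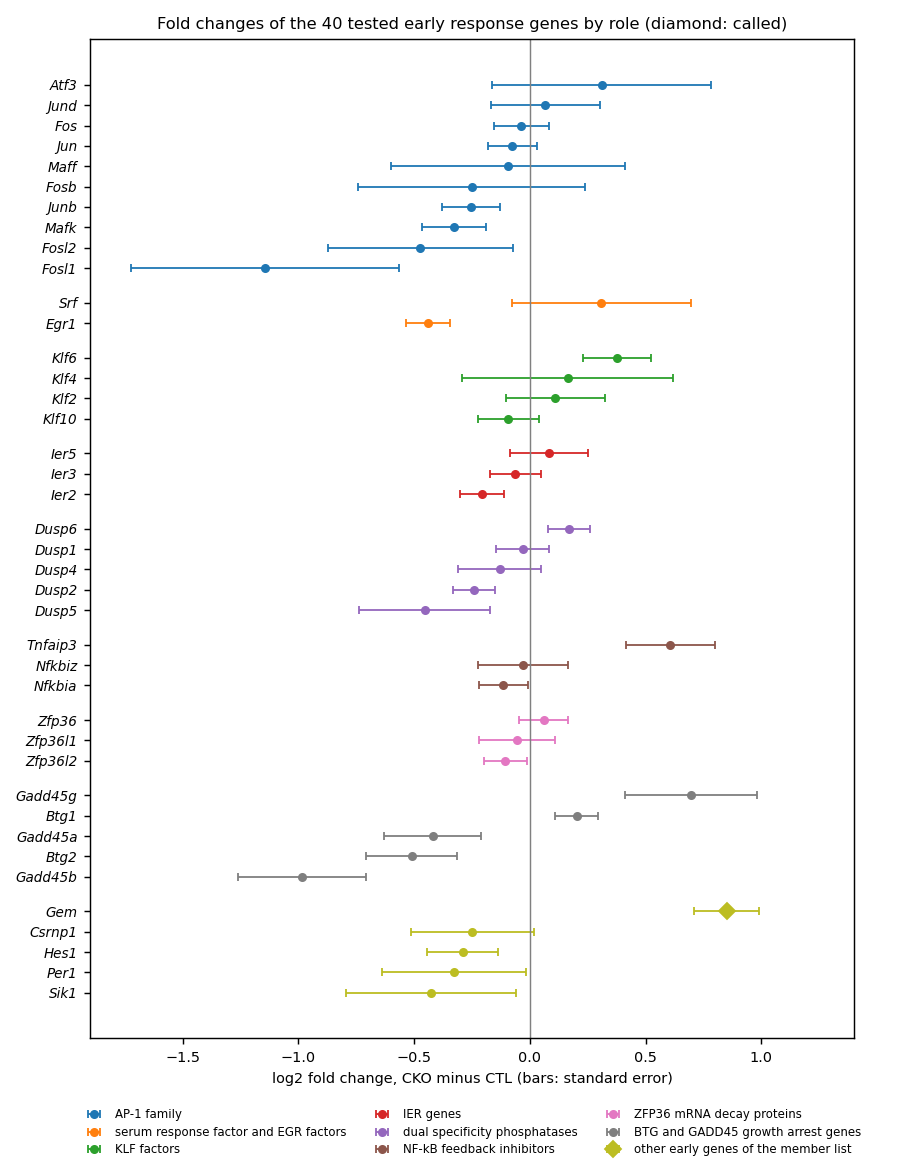
Log2 fold change of Cited2 CKO over Cited2 CTL (x axis) with its standard error (bars) for the 40 tested early response genes (y axis), grouped and coloured by role. Gem (diamond, 0.85) was the only gene called, 13 points lie right of 0 and 27 left, and the values without the GC offset are shown.

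*Gem* encodes a small GTP-binding protein of the RGK group that acts on calcium channels and the cytoskeleton (chromosome 4 of GRCm38, 11704457 to 11714752, with no exon of another gene over it). It stood at 60.2, 67.95, 78.2, 56.5 and 68.9 CPM in CTL 1 to CTL 5 and 110.3, 106, 92.2, 150.5 and 139.6 CPM in CKO 1 to CKO 5. All 5 *Cited2* CKO libraries were above all 5 control libraries, the library labelled CKO 3 being the lowest of them. *Gem* rose from 66.4 ± 8.42 CPM to 119.8 ± 24.4 CPM (SD, n = 5 per genotype), a log2 fold change of 0.85 (standard error 0.14, edgeR adjusted p = 0.0235). Without the library labelled CKO 3 the log2 fold change was 0.93 (edgeR adjusted p = 0.00902). The edgeR call was nevertheless close to its threshold: the edgeR adjusted p was 0.0506 to 0.0923 in the 7 fits that left out CTL 1, CTL 2, CTL 4, CTL 5, CKO 1, CKO 2 or CKO 5. The Wald test of DESeq2, with all libraries, gave a log2 fold change of 0.85 and an adjusted p of 1.4e-05.

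Of the other 4 early genes grouped with *Gem*, none was called. *Sik1* ranged from 46.3 to 195 CPM in the control and 59.4 to 126 CPM in the *Cited2* CKO mice (log2 fold change -0.43), *Csrnp1*, a nuclear protein induced by AXIN1, from 43.5 to 130.2 CPM and 49.2 to 95.8 CPM (-0.25), *Per1*, the clock gene that also responds to cAMP, from 18.7 to 62.1 CPM and 19.8 to 49.3 CPM (-0.33), and *Hes1*, the Notch-induced repressor, from 58.5 to 94.97 CPM and 43.97 to 64.3 CPM (-0.29). The ranges of all 4 overlapped between the genotypes.

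In the AP-1 family, whose subunits pair as dimers on TGANTCA sites, none of the 10 tested genes was called, 2 were higher and 8 lower, and the median log2 fold change was -0.17. With the GC offset 5 were higher and 5 lower, with a median of 0.02. *Fos* stood at 539, 523, 726, 448 and 576 CPM in CTL 1 to CTL 5 and 449, 542, 521, 656 and 573 CPM in CKO 1 to CKO 5, and the genotypes covered nearly the same range. Its log2 fold change was -0.04 (standard error 0.12, edgeR adjusted p = 0.927), and it turned to 0.07 without CTL 3 and to 0.06 with the GC offset. *Jun* stood at 696, 564, 748, 562 and 571 CPM in CTL 1 to CTL 5 and 543, 592, 531, 745 and 571 CPM in CKO 1 to CKO 5, again with overlapping ranges and with CTL 3 and CKO 4 highest. Its log2 fold change was -0.08 (standard error 0.11, edgeR adjusted p = 0.812), and it was 0.12 with the offset. *Junb*, which unlike JUN holds back proliferation of HSCs and myeloid cells, stood at 262, 244, 333, 205 and 291 CPM in CTL 1 to CTL 5 and 204, 191, 208, 273 and 244 CPM in CKO 1 to CKO 5. The log2 fold change of *Junb* was -0.25 (standard error 0.13, edgeR adjusted p = 0.419), or -0.03 with the offset, and 3 of the 5 *Cited2* CKO libraries lay inside the control range.

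*Mafk*, a small MAF protein without an activation domain, stood at 86.6, 76.5, 92.02, 70.9 and 82.7 CPM in CTL 1 to CTL 5 and 75.8, 75.2, 54.1, 72.02 and 48.9 CPM in CKO 1 to CKO 5. CKO 5 and the library labelled CKO 3 lay below every control library, and the other *Cited2* CKO libraries lay among the controls. The log2 fold change of *Mafk* was -0.33 (standard error 0.14, edgeR adjusted p = 0.345), and it was -0.12 with the GC offset. *Fosl1*, the FOS-related gene at the bottom of the family, stood at 3.68, 3.79, 7.94, 4.14 and 5.91 CPM in CTL 1 to CTL 5 and 2.14, 0.495, 4.96, 1.47 and 2.30 CPM in CKO 1 to CKO 5, or 2 to 27 counts per library. Its 4 lowest *Cited2* CKO libraries were below every control and the library labelled CKO 3 was not, and its log2 fold change of -1.15, furthest from 0 of the 40, had a standard error of 0.58 (edgeR adjusted p = 0.428). Exons of *Ccdc85b* on the opposite strand cover 57.2% of the exonic bases of *Fosl1*, and without stated strand use their reads cannot be told apart. *Fosb* (log2 fold change -0.25), *Fosl2* (-0.47), *Maff* (-0.09), *Jund* (0.07) and *Atf3* (0.31) completed the family, with standard errors of 0.23 for *Jund* and 0.40 to 0.50 for the other 4. *Gm11175* on the opposite strand covers 52.6% of the exonic bases of *Jund*.

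Serum response factor and EGR1 are the first steps from MAP kinase signaling to transcription. *Egr1* (chromosome 18, 34859823 to 34864984), a zinc finger factor linked to HSC quiescence and retention in the niche, stood at 649, 592, 714, 536 and 632 CPM in CTL 1 to CTL 5 and 426, 426, 479.6, 562 and 406 CPM in CKO 1 to CKO 5. Of the 5 *Cited2* CKO libraries, 4 lay below all controls and CKO 4 lay above the lowest control. The means were 624 ± 66.1 CPM and 460.0 ± 63.4 CPM (SD, n = 5 per genotype), and the log2 fold change of -0.44 (standard error 0.10) missed the call with edgeR (adjusted p = 0.0781) and passed it with DESeq2 (adjusted p = 0.000777). Without CKO 4 it was -0.53 (edgeR adjusted p = 0.0266), without the library labelled CKO 3 -0.46 (0.0959), and with the GC offset -0.21 (0.747). *Srf* was low, at 2.92 to 12.6 CPM in the control and 7.17 to 11.8 CPM in the *Cited2* CKO libraries, with a log2 fold change of 0.31 (standard error 0.39). *Egr2* and *Egr3* did not pass the filter: *Egr2* had 1, 11, 20, 6 and 48 counts in CTL 1 to CTL 5 and 0, 6, 5, 13 and 0 in CKO 1 to CKO 5, and *Egr3* at most 4 counts in any library. *Egr2*, like *Fosb* and *Sik1*, was highest in CTL 5 and CTL 3.

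The KLF factors bind GC-rich promoters, and *Klf2* and *Klf4* are known for holding leukocytes quiescent. Of the 4 tested, 3 were higher and 1 lower in *Cited2* CKO HSCs and none was called (median log2 fold change 0.14). *Klf6* stood at 313, 443, 486, 246 and 368 CPM in CTL 1 to CTL 5 and 441, 459.6, 447, 525 and 538 CPM in CKO 1 to CKO 5. CTL 2 and CTL 3 reached the range of the *Cited2* CKO libraries and the other 3 controls lay below it, and its log2 fold change was 0.38 (standard error 0.15, edgeR adjusted p = 0.312). *Klf2* ranged over 34.9 to 72.7 CPM and 43.5 to 74.7 CPM in the control and *Cited2* CKO libraries (log2 fold change 0.11), *Klf4* over 8.04 to 22.8 CPM and 5.94 to 32.3 CPM (0.16), and *Klf10*, the TGF-beta induced member, over 181 to 291 CPM and 196 to 256 CPM (-0.09).

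Among the 3 IER genes, small early products with roles in proliferation and survival, *Ier2* stood at 344, 302, 350.1, 268 and 310.3 CPM in CTL 1 to CTL 5 and 257, 238, 262, 331 and 274 CPM in CKO 1 to CKO 5. CKO 1, CKO 2 and the library labelled CKO 3 were below every control library, and the log2 fold change was -0.21 (standard error 0.10, edgeR adjusted p = 0.380), or -0.01 with the GC offset. *Ier3* ranged over 111 to 156 CPM in the control and 112 to 154 CPM in the *Cited2* CKO libraries (log2 fold change -0.06) and *Ier5* over 78.6 to 135 CPM and 85.3 to 165 CPM (0.08). Of the 3 genes, 1 was higher and 2 lower, and with the offset 2 were higher and 1 lower.

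The dual specificity phosphatases take phosphate off MAP kinases, DUSP1 and DUSP2 in the nucleus and DUSP6 in the cytoplasm with a preference for ERK. None of the 5 was called, 1 was higher and 4 lower, and the median log2 fold change was -0.13. With the GC offset the majority turned, with 3 higher (*Dusp1*, *Dusp4* and *Dusp6*), 2 lower and a median of 0.07. *Dusp1*, whose promoter holds TGACGTCA, stood at 331, 331, 435, 314 and 366 CPM in CTL 1 to CTL 5 and 290.0, 322, 316, 432 and 381 CPM in CKO 1 to CKO 5. The genotypes covered the same range apart from CKO 1, and the log2 fold change was -0.03 (standard error 0.11, edgeR adjusted p = 0.936), which turned to 0.05 without CTL 3 and to 0.12 with the GC offset. *Dusp2* stood at 274, 255, 282, 210.1 and 262 CPM in CTL 1 to CTL 5 and 218, 231, 182, 234 and 220.1 CPM in CKO 1 to CKO 5. CTL 4 was the only control library inside the *Cited2* CKO range, and the log2 fold change was -0.24 (standard error 0.09, edgeR adjusted p = 0.291), or -0.03 with the offset. *Dusp6*, the ERK phosphatase, was the higher one, over 174 to 235 CPM in the control and 202 to 261 CPM in the *Cited2* CKO libraries (log2 fold change 0.17). *Dusp4* ranged over 22.2 to 38.2 CPM and 20.3 to 32.4 CPM (-0.13) and *Dusp5*, the nuclear ERK phosphatase, over 24.1 to 74.6 CPM and 24.99 to 43.8 CPM (-0.45).

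Of the 3 genes grouped as NF-kB feedback inhibitors, *Tnfaip3*, which encodes the ubiquitin-editing enzyme A20 (chromosome 10, 19000910 to 19015657), differed most. It stood at 27.1, 53.04, 51.1, 41.7 and 67.8 CPM in CTL 1 to CTL 5 and 72.5, 67.3, 62.9, 78.2 and 87.6 CPM in CKO 1 to CKO 5. Of the *Cited2* CKO libraries 3 were above every control library, and the other 2 were above all controls except CTL 5. The means were 48.2 ± 15.05 CPM and 73.7 ± 9.65 CPM (SD, n = 5 per genotype), and the log2 fold change of 0.61 (standard error 0.19) did not pass the adjusted threshold with edgeR (adjusted p = 0.218) or DESeq2 (0.0829). With the GC offset the log2 fold change of *Tnfaip3* was 0.55 (edgeR adjusted p = 0.639). *Nfkbia*, which encodes the inhibitor that holds NF-kB in the cytoplasm, spread little between mice, over 107 to 129 CPM in the control and 95.7 to 138 CPM in the *Cited2* CKO libraries (log2 fold change -0.11). *Nfkbiz*, a nuclear cofactor of NF-kB, ranged over 98.3 to 214 CPM and 125 to 186 CPM (-0.03). Of the 3 genes in this group 1 was higher and 2 were lower, and with the GC offset 2 were higher and 1 lower.

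The ZFP36 proteins bind AU-rich elements and destroy the mRNAs of cytokines and of other early genes. None of the 3 was called, 1 being higher and 2 lower, and with the GC offset 2 being higher and 1 lower. *Zfp36* stood at 332, 300.3, 399.8, 270.3 and 336 CPM in CTL 1 to CTL 5 and 296, 366, 305, 398 and 343 CPM in CKO 1 to CKO 5, with overlapping genotypes and CTL 3 and CKO 4 highest. Its log2 fold change was 0.06 (standard error 0.11, edgeR adjusted p = 0.856), and 0.21 with the offset. *Zfp36l2* ranged over 131 to 171 CPM and 131 to 153 CPM in the control and *Cited2* CKO libraries (log2 fold change -0.11), and *Zfp36l1* over 56.1 to 71.8 CPM and 48.5 to 87.6 CPM (-0.06), although *Gm26669* on the opposite strand covers 55.9% of its exonic bases.

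The growth arrest genes of the BTG and GADD45 families held 4 of the 11 genes at an unadjusted p under 0.05, 2 in each direction, and none was called (median log2 fold change -0.42 over the 5). With the GC offset 2 of the 5 were higher and 3 lower, and the median was again -0.42. *Gadd45b*, a stress sensor upstream of p38 and JNK (chromosome 10, 80930073 to 80932204), stood at 16.7, 19.9, 26.5, 14.1 and 20.1 CPM in CTL 1 to CTL 5 and 9.98, 6.18, 8.51, 9.41 and 14.98 CPM in CKO 1 to CKO 5. CKO 5 was the only *Cited2* CKO library that reached the control range. With means of 19.5 ± 4.62 CPM and 9.81 ± 3.23 CPM (SD, n = 5 per genotype) and 25 to 92 counts per library, the log2 fold change was -0.98 (standard error 0.28), and it was called by DESeq2 (adjusted p = 0.0362) and not by edgeR (adjusted p = 0.152). With the GC offset the log2 fold change of *Gadd45b* was -0.86 (edgeR adjusted p = 0.509). *Gadd45g*, its paralog, stood at 15.1, 16.2, 9.70, 12.7 and 12.5 CPM in CTL 1 to CTL 5 and 24.96, 14.3, 12.1, 33.8 and 22.1 CPM in CKO 1 to CKO 5 and leaned the other way. CKO 1, CKO 4 and CKO 5 were above every control library, and the log2 fold change was 0.70 (standard error 0.28, edgeR adjusted p = 0.332), or 0.84 with the offset. *Gadd45a*, the p53 target of the family, ranged over 17.6 to 34.4 CPM in the control and 16.8 to 26.1 CPM in the *Cited2* CKO libraries (log2 fold change -0.42).

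*Btg2*, an antiproliferative gene that p53 and early signals induce and whose promoter carries TGACGTCA, stood at 152, 139, 207, 132 and 207 CPM in CTL 1 to CTL 5 and 76.8, 118, 131, 173 and 91.5 CPM in CKO 1 to CKO 5. All *Cited2* CKO libraries except CKO 4 were below the control range, the library labelled CKO 3 only just so. The log2 fold change was -0.51 (standard error 0.20, edgeR adjusted p = 0.306), or -0.48 with the GC offset. *Btg1*, its relative in quiescent lymphoid cells, ranged over 98.6 to 124 CPM in the control and 113 to 151 CPM in the *Cited2* CKO libraries, 4 of which were above every control (log2 fold change 0.20, edgeR adjusted p = 0.386, and 0.08 on the log2 scale with the GC offset).

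**Figure D4:**
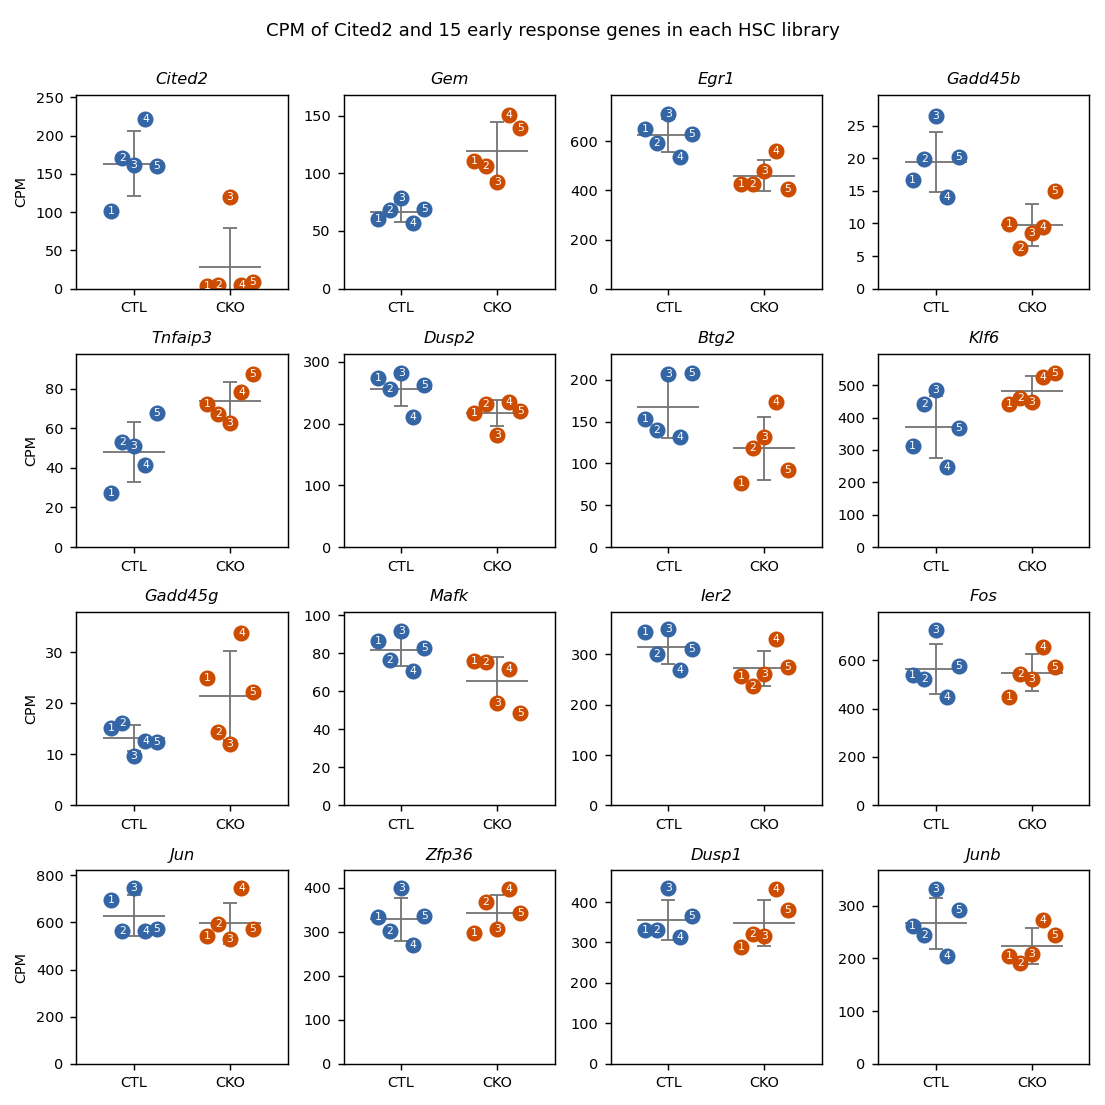
CPM (y axis, from 0, a scale per gene) of Cited2 and 15 early response genes in each library, blue for Cited2 CTL and orange for Cited2 CKO, with the library number in the point; lines give the mean and bars the SD over 5 libraries, cut at 0 for Cited2. Only the Gem panel shows genotypes without overlap, and CKO 3 lies among the controls for Cited2 (120.1 CPM).

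The most abundant early response genes lay in a range of the table in which fold changes were small for genes in general. Dividing each gene's mean count by its length gave 1.03 counts per base for *Fos*, rank 19 among genes of at least 200 bases, and over 0.5 for 8 of the 42 genes. The highest value of any gene of that length was 1.596. Among genes with a mean of at least 200 counts, the median absolute log2 fold change was lower at each step, from 0.155 under 0.1 counts per base to 0.120, 0.0884, 0.0565 and 0.0492 in the ranges from 0.1, 0.25, 0.5 and 0.75 upward, and 0 of the 301 and 0 of the 88 genes in the upper pair of ranges were called. *Egr1*, at 0.684 counts per base, had the largest absolute log2 fold change (0.441) of the 301 genes between 0.5 and 0.75. The treatment of duplicate reads is not given in the sources used here, and its part in the small differences of *Fos*, *Jun*, *Zfp36*, *Dusp1* and *Ier2* was not tested.

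**Figure D5:**
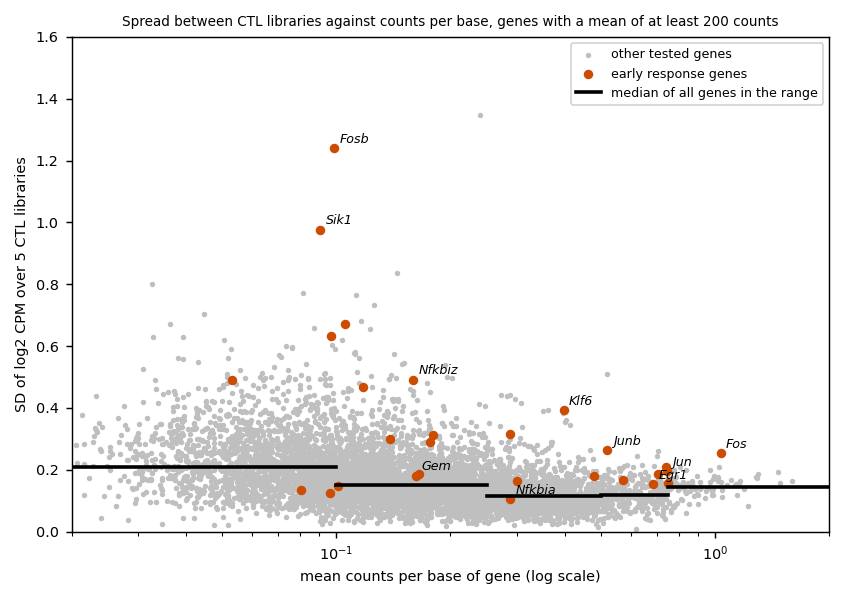
SD of log2 CPM over the 5 control libraries (y axis) against mean counts per base of gene (x axis, log scale) for tested genes with a mean of at least 200 counts, early response genes in orange. The black lines give the median of all genes in each range. They run from 0.210 at the lowest counts per base down to 0.116 between 0.25 and 0.5. Above that they rise to 0.120 between 0.5 and 0.75 and 0.145 from 0.75 upward. Fosb, Sik1 and Klf6 lie far above the lines.

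The neighbours of the set in the same pathways were read from 2 further lists. Of 49 tested other early response genes, 0 were called, and 2 were higher and 3 lower at an unadjusted p under 0.05. Of all tested genes, 0.12% were called higher and 0.106% lower, and 5.8% were higher and 7.08% lower at that unadjusted p. The median log2 fold change of the 49 was -0.02, against -0.09 for the 40 genes. The smallest p-values were those of *Pim3*, a survival kinase, at 77.2, 79.3, 89.96, 70.9 and 93.9 CPM in the control and 48.01, 47.5, 61.2, 63.5 and 64.98 CPM in the *Cited2* CKO libraries (log2 fold change -0.53, standard error 0.13, edgeR adjusted p = 0.102), of *Id2*, an inhibitor of E proteins (0.52, standard error 0.19), and of *Myc* (-0.26, standard error 0.10). DESeq2 called *Pim3*. *Id2* stood at 26.1, 27.3, 23.5, 28.03 and 21.2 CPM in CTL 1 to CTL 5 and 30.9, 29.7, 29.6, 52.03 and 38.9 CPM in CKO 1 to CKO 5, and *Myc* at 319, 289, 271, 276 and 234 CPM in CTL 1 to CTL 5 and 213, 197, 248, 269.9 and 234 CPM in CKO 1 to CKO 5. *Pim3* and *Id2* did not overlap between the genotypes and *Myc* did. The genotypes did not overlap for 3.33% of all tested genes, and these genes were picked for their small p.

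Among 32 tested kinases and factors that act upstream of early genes, 1 was called higher, where 0.12% of all tested genes were. At an unadjusted p under 0.05, 4 were higher and 6 lower, against 5.8% and 7.08% of all tested genes. The median log2 fold change of the 32 was -0.04. *Rps6ka3* encodes RSK2, an ERK-activated kinase that phosphorylates SRF, CREB and FOS, and lies on chromosome X. It stood at 51.8, 71.7, 72.3, 81.7 and 74.8 CPM in CTL 1 to CTL 5 and 113, 114, 129, 104 and 104 CPM in CKO 1 to CKO 5, without overlap, and rose in *Cited2* CKO HSCs with a log2 fold change of 0.67 (standard error 0.12, edgeR adjusted p = 0.0309). *Crtc1*, a CREB coactivator (log2 fold change -0.50, edgeR adjusted p = 0.203), and *Map2k1*, which encodes MEK1 (-0.21, edgeR adjusted p = 0.257), followed it. *Crtc1* stood at 53.5, 100.03, 72.03, 86.3 and 72.4 CPM in CTL 1 to CTL 5 and 51.3, 47.8, 65.95, 52.3 and 54.6 CPM in CKO 1 to CKO 5 and overlapped between the genotypes. *Map2k1* stood at 150.1, 144, 135, 148 and 129 CPM in CTL 1 to CTL 5 and 124, 120.2, 128, 124 and 112 CPM in CKO 1 to CKO 5, all *Cited2* CKO libraries below all controls. In this list DESeq2 called *Rps6ka3* and no other gene, where it called 1.1% of all genes with an adjusted p higher. For 3.33% of all tested genes the genotypes did not overlap, and the genes printed here were picked for their small p.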

How the data were processed

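Sorted HSCs of 5 Cited2 CTL and 5 Cited2 CKO mice were profiled, 1 library per mouse. HISAT2 alignment to GRCm38 and Rsubread counting of the single-ended reads were done by the authors, and the deposited values are raw counts per gene symbol beside each gene's length in bases (another deposited column, used for levels per kb). The annotation, strand setting and handling of multi-mapping and duplicate reads are not given in the sources used here. Totals of 3058690 to 4548795 counts per library set the precision, which is poorest where a gene has few reads. They are below the number of reads sequenced, no gene of at least 200 bases exceeded 2 counts per base, and a cap on abundant genes was not tested.

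The main test used edgeR 4.0.16 in R 4.3.3 (filterByExpr, TMM, robust quasi-likelihood F test, Benjamini-Hochberg adjustment over all 14165 tested genes, prior count 2), and the common biological coefficient of variation was 25.3%. A gene was called at an adjusted p under 0.05 and a fold change above 20%. Alternatives were DESeq2 1.42.0 (the Wald test that the study used), DESeq2 size factors in edgeR, limma-voom (limma 3.58.1), no filter, at least 10 counts in every library, the replicate number as a block, a loess offset for GC content and length (span 50%) with and without that block, an adjusted p of 0.1 without a fold threshold, and each library left out in turn. The scripts were tested on simulated data. The genes, their role groups and the pathway and marker lists were chosen with earlier results of these data known. Full values are given for genes called, genes without overlap, the 10 with the smallest p and the 8 with the highest level per length, and for the called gene and the 3 genes with the smallest p of the early response and upstream lists, with fold changes for those of the heat shock list. Fosb, Sik1, Atf3, Fosl1, Egr2 and Hes1 were singled out after their values were seen. Gene positions and overlaps came from GENCODE and promoters from RefSeq, both on GRCm38.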

Additional observations from a re-analysis of the deposited data

Results flagged for a closer look

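In groups of 5 libraries, a value was picked out where its gap to the nearest other library, divided by the range of the group, exceeded Dixon's critical value of 0.71. This was examined for 82 groups (Cited2 and the 40 tested early response genes in each genotype), 4 passed, and chance alone gives about 1 in 20. Cited2 in the library labelled CKO 3 stood at 120.1 CPM, the next Cited2 CKO library at 8.30 CPM. Jun in CKO 4 stood at 744.6 CPM, the next at 592 CPM, and CKO 4 was also the highest Cited2 CKO library for Egr1, Fos, Zfp36 and Dusp1. Atf3 in CTL 3 stood at 30.28 CPM, the next control at 10.97 CPM, in the library that was highest for 19 of the 40 genes. Hes1 in CKO 1 was the lowest of its genotype at 43.97 CPM, the next at 61.85 CPM.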

How the results depend on the processing

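Among the 15 genes given in full, the call of Gem changed in the most alternatives, 10 of 18, although its log2 fold change stayed between 0.75 and 0.93. The call was lost with the replicate block (log2 fold change 0.84, edgeR adjusted p = 0.0844), with the GC and length offset (0.79, 0.200) and with both (0.75, 0.335), so that 0 early response genes were called higher in these 3 fits. Leaving out each library gave 0.75 to 0.93 for Gem with edgeR adjusted p from 0.00902 to 0.0923. It left 0 to 1 genes called higher and 0 to 1 called lower (Egr1, without CKO 4). In these fits 0.0555% (without CKO 2) to 0.292% (without the library labelled CKO 3) of all tested genes were called. Genes called lower numbered 2 with DESeq2, 1 without a filter and 1 at an adjusted p under 0.1 (Egr1 in each, with Gadd45b in DESeq2). Over all genes, DESeq2 called 1.44% lower, and 74 of 14165 were lower at an edgeR adjusted p under 0.1. Genes with an unadjusted p under 0.05 numbered 3 higher with limma-voom, with the offset and with offset and block, and 2 were lower with the offset and with offset and block. Leaving out each library gave 2 to 5 higher (2 without CKO 4, 3 without CTL 1, CTL 4, CTL 5 or CKO 5) and 3 to 10 lower (3 without CTL 5, 10 without CTL 4). The shares of all genes at that p are not given for these alternatives, so the counts describe the early response genes only. Genes without overlap numbered 1 to 5, the 5 without CTL 4 (4.93% of all genes), where 4.05% to 6.09% of all genes did not overlap in these fits. Cited2 was -3.99 with limma-voom (adjusted p = 0.0341) and -4.92 to -2.23 with a library left out. Of the 15 genes given in full, 11 kept their direction in all alternatives. Fos turned to 0.0558 with the offset and 0.0633 with offset and block, Jun to 0.12 and Dusp1 to 0.12 in both fits, and with a library left out Fos ran from -0.11 to 0.0684, Zfp36 from -0.0045 to 0.14 and Dusp1 from -0.12 to 0.0488. The cause of these changes was not tested. The median log2 fold change of the tested genes ran from -0.17 to 0.04 over the alternatives, and whether it differed from 0 was not tested. Deviations of libraries with the same number correlated above 0.1 over genes for numbers 3 (r = 0.208) and 5 (r = 0.193) and not for the other 3 (-0.0947 to 0.00956), and 1 of 5 correlated best with its own number, so that the labels' numbers were not taken as pairs in the main test. The replicate block changed no other call among the 15 genes. Depth limits Egr2, Egr3, Fosl1 and Maff most.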

Other observations

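Heat shock proteins and stress chaperones keep proteins folded under stress and are induced by heat shock factor. Of 20 tested genes, 0 were called by edgeR, 0 were called by DESeq2 and 0 had an unadjusted p under 0.05 in edgeR. At that unadjusted p 5.8% of all tested genes were higher and 7.08% lower. In fold change 9 of the 20 were higher and 11 lower, and the median log2 fold change was -0.03. The smallest p-values belonged to the mitochondrial chaperones Hspa9 and Hspd1 and to the HSP70 cofactor Dnaja1, each with a log2 fold change of 0.11. These genes also ordered the libraries differently from the early response genes. Their median deviation from the mean of 10 libraries was 0.16 in CTL 1 and 0.15 in CTL 3, and -0.12 in CTL 5, where early response genes had -0.03, 0.32 and 0.18. The 49 other early response genes lay at -0.15 in CTL 1, 0.22 in CTL 3, 0.23 in CTL 5 and -0.23 in CKO 2, and for the set itself CKO 2 stood at -0.14.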
